A study of Mus musculus with 13 samples.

Results

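Interleukin-10 (IL-10) is a cytokine that restrains inflammation, and Treg cells are among its sources. Blimp-1 (Prdm1), c-Maf (Maf), BATF (Batf) and IRF4 (Irf4) are transcription factors of activated T cells that take part in effector Treg cell differentiation and, in several T cell subsets, in Il10 transcription. BATF pairs with Jun proteins and binds composite DNA elements together with IRF4, and these pioneer-like complexes open chromatin at effector genes, whereas Blimp-1 acts mainly as a repressor and c-Maf is a bZIP factor that binds at the Il10 locus. The rows of these 5 genes were taken by symbol from both count tables, 5 of 24417 named genes, and were described in 13 bulk RNA-seq libraries.

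The libraries came from doubly sorted TCRβ+CD4+CD8-NK1.1- T cells of spleen and lymph nodes of C57BL/6 mice. They were sorted as Foxp3+Thy1.1- Treg cells or as Thy1.1+Foxp3- Treg "wannabes". The latter are cells that have activated a Foxp3 reporter-null allele and make no Foxp3 protein. This allele, Foxp3LSL, has a loxP-flanked Thy1.1 and STOP cassette ahead of a GFP reporter. In the male experiment all mice received 4-hydroxytamoxifen on postnatal day 14 and were analysed on day 21, that is 7 days later. Rescued Treg cells (n = 3) came from Foxp3LSL/y Cd4creERT2 mice, in which an inducible Cre driven by Cd4 removes the cassette, control Treg cells (n = 3) from healthy Foxp3DTR-GFP/y Cd4creERT2 mice, and male "wannabes" (n = 2) from Foxp3LSL/y Cd4wt mice, which lack the recombinase and remain sick. In the female experiment the mice, of 8-10 weeks when treated and 9-11 weeks by their labels, received diphtheria toxin 7, 5, 3 and 1 days before analysis. Resting "wannabes" (n = 3) came from Foxp3LSL/WT Cd4wt females, which keep Treg cells that make Foxp3 from the wild-type allele, and activated "wannabes" (n = 2) from Foxp3LSL/DTR Cd4wt females, whose Treg cells carry the toxin receptor and were ablated. Control Treg cells therefore differ from rescued Treg cells in the Foxp3 allele as well as in the history of the mouse, and both Treg populations carry the Cre whereas no "wannabe" does. The methods of the study give as many female mice as there are female libraries, and call the male libraries biological replicates.

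Levels are CPM, read counts set against the library total and scaled by the trimmed mean of M values, computed within each experiment, so that a level set beside one from the other experiment rests on separate scaling. Between 25558402 and 36660933 reads were counted per library, and the 5 genes held between 352 and 9800 reads each in every library, well above the range where counting error limits a comparison. Foxp3 reached 865 to 1110 CPM in rescued Treg cells, 167 to 252 CPM in control Treg cells, 84.2 and 99.8 CPM in male "wannabes" and 52.8 to 75.1 CPM in female "wannabes". Thy1 reads were 36.4 to 46.7 CPM in the Treg cell libraries and 176 to 327 CPM in the "wannabe" libraries, in the order that the sort gates set. T cell genes (6 markers) summed to between 3692 and 5793 CPM in all libraries. Of cells that could carry Il10, Prdm1, Maf or Irf4 into the sort, 8 B and plasma cell markers summed to 20.8 to 44.1 CPM, with Mzb1 at 0 in 9 and Ms4a1 at 0 in 6 of 13 libraries. The 8 myeloid and dendritic cell markers summed to 0.196 to 5.95 CPM, and 5 CD8 T and NK cell markers to 13.5 to 37.3 CPM. In bulk libraries, fewer cells that express a gene and less RNA per expressing cell cannot be told apart.

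Differential expression was tested with edgeR's quasi-likelihood test across all genes, and a gene was called at a Benjamini-Hochberg adjusted p under 0.05. On GRCm38 (GENCODE M21), Il10 lies on chromosome 1 from 131019845 to 131024974 (plus strand), Prdm1 on chromosome 10 from 44437177 to 44528501 (minus strand), Maf on chromosome 8 from 115682942 to 115707794 (minus strand), Batf on chromosome 12 from 85686669 to 85709087 (plus strand) and Irf4 on chromosome 13 from 30749226 to 30766976 (plus strand). Of these, Maf is the gene that overlaps another annotated gene, the antisense Gm15655, with which it shares 440 exonic bases. The strand setting of the counting is not given in the sources used here, so reads from those bases cannot be assigned to either strand. Per kilobase of exon, Batf had the highest level of the 5 genes in all 5 populations, between 70.1 ± 9.5 (SD, n = 3) CPM per kb in resting "wannabes" and 179 ± 59 (SD, n = 2) in male "wannabes". On that scale Il10 lay between 9.72 ± 1.89 CPM per kb in control Treg cells (SD, n = 3) and 59.1 ± 8.7 in rescued Treg cells (SD, n = 3). Maf had the lowest level on the same scale in each population, from 3.94 ± 0.90 in control Treg cells (SD, n = 3) to 12.8 ± 4.1 CPM per kb in resting "wannabes" (SD, n = 3).

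RefSeq promoter windows on GRCm38.p6, from 250 bases before to 50 bases after a transcription start, were held for Prdm1, Batf and Irf4, 3 of the 5 genes. They were searched on both strands for TGANTCA, the AP-1 and BATF element, GAAANNGAA, an IRF element, AGNGAAAG, a Blimp-1 element, and TGCTGA, a Maf core. None of these strings contains another. Of the 32851 windows of 300 bases in the same table, 7.81% held the first, 8.56% the second, 8.63% the third and 19.5% the fourth. The Prdm1 window, at chr10:44458699-44458998 on the minus strand and inside the annotated gene, is shown because it was the window of the 3 with a match. A TGANTCA match, in capitals, begins at position -48 from the start and reads the same element on both strands.
Prdm1: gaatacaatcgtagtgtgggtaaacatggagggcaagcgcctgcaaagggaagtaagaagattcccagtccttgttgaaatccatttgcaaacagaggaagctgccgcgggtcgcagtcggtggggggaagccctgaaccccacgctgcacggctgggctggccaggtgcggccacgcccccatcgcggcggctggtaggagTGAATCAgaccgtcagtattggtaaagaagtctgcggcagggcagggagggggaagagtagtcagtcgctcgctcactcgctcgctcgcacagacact
The Batf and Irf4 windows did not contain these letters. A match describes the sequence of the window and not a bound site.

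Il10 was highest in rescued Treg cells and lowest in control Treg cells. Control Treg cells had 15.0, 13 and 10.1 CPM of Il10, and rescued Treg cells 64.4, 82.0 and 85.8 CPM. Male "wannabes" had 53.6 and 60.9 CPM. Each rescued library was thus above each male "wannabe" library, and each of those was above each control library. In the female experiment resting "wannabes" had 43.8, 62.3 and 39.9 CPM and activated "wannabes" 19.7 and 31.1 CPM, again without overlap, but here the cells from sick mice were lower.

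Prdm1, which encodes the repressor Blimp-1, was ordered similarly but with a wider spread. Its level was 83.3, 56.4 and 61.8 CPM in control Treg cells, 131, 147 and 274 CPM in rescued Treg cells, and 85.8 and 136 CPM in male "wannabes". Resting "wannabes" had 138, 173 and 91.8 CPM, and activated "wannabes" 67.6 and 87.2 CPM. Rescued and control Treg cells did not overlap, nor did resting and activated "wannabes", whereas the higher of the male "wannabe" libraries lay within the range of the rescued Treg cells.

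Maf was 26.6, 30.0 and 40.9 CPM in control Treg cells, 82.3, 85.6 and 52.8 CPM in rescued Treg cells, and 69.0 and 37.6 CPM in male "wannabes". It was highest in resting "wannabes", with 98.8, 143 and 75.8 CPM, and reached 49.2 and 48.7 CPM in activated "wannabes". Male "wannabes" overlapped both Treg populations, while the other pairs within an experiment did not overlap. Rescued library 3, which had the most Prdm1, had the least Maf of its group, and male "wannabe" library 2 had more Prdm1 and less Maf than library 1.

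Batf followed another order. It was 138, 129 and 170 CPM in control Treg cells, 185, 217 and 216 CPM in rescued Treg cells, and 193 and 310 CPM in male "wannabes". In females it was 95, 113 and 87.2 CPM in resting "wannabes" and 135 and 141 CPM in activated "wannabes", so that the cells from sick mice were above those from healthy mice in both experiments.

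Irf4 was 105, 78.0 and 89.8 CPM in control Treg cells, 73.4, 80.8 and 63.6 CPM in rescued Treg cells, and 153 and 134 CPM in male "wannabes". Resting "wannabes" had 134, 190 and 124 CPM and activated "wannabes" 74.5 and 73.0 CPM. The Treg populations overlapped, both lay below male "wannabes", and resting "wannabes" lay above activated ones. All 5 genes were highest in library 2 and lowest in library 3 of the resting "wannabes".

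**Figure D1:**
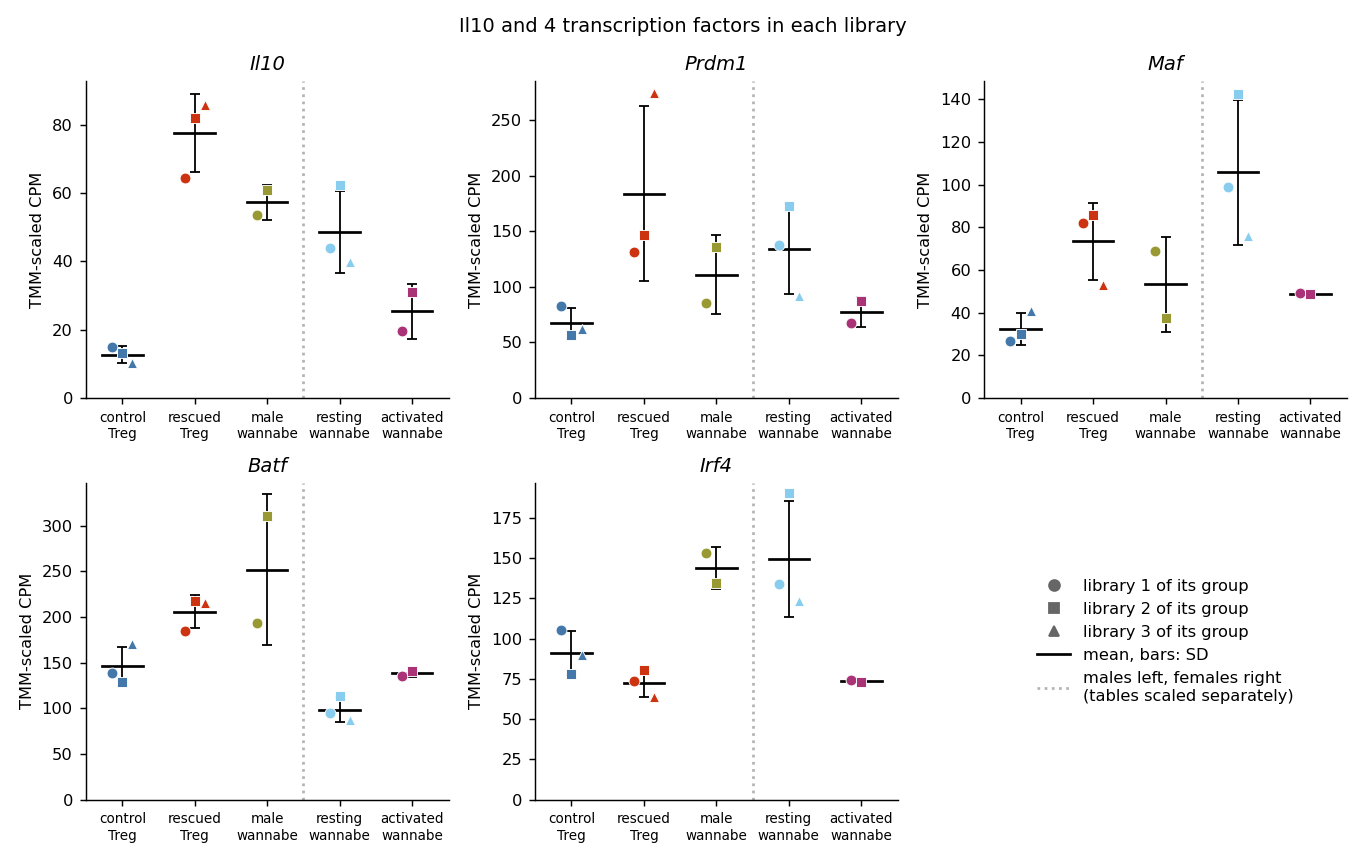
Level of Il10, Prdm1, Maf, Batf and Irf4 (TMM-scaled CPM, linear axis from 0) in each of 13 libraries; symbols mark the library number, black lines the mean and bars the SD of a group, and the dotted line separates males from females, which were scaled separately. Il10 spans 10.1 to 15.0 CPM in control and 64.4 to 85.8 CPM in rescued Treg cells, while Irf4 of these groups overlaps.

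To ask which of the factors changed along with Il10 when Treg cells arose in sick mice, rescued and control Treg cells were compared. Il10 rose 6.08-fold (log2 fold change 2.60, SE 0.22, 95% interval 2.11 to 3.10, adjusted p 0.0004, edgeR) and Prdm1 rose 2.74-fold (log2 fold change 1.46, SE 0.29, adjusted p 0.0276). Both were called, in a comparison where 1.43% of the 14925 genes tested were called higher and 0.864% lower. Maf was not called, with a log2 fold change of 1.18 (SE 0.28, 95% interval 0.55 to 1.80, adjusted p 0.0602), although its groups did not overlap. Batf had a log2 fold change of 0.50 (95% interval 0.07 to 0.92, adjusted p 0.233), and Irf4 one of -0.33 (95% interval -0.70 to 0.05, adjusted p 0.397). The Il10 call held without each of the 8 male libraries in turn, whereas Prdm1 was lost without control library 1 (log2 fold change 1.64, adjusted p 0.0692), 2 (1.34, 0.119) or 3 (1.40, 0.109) and without rescued library 3 (1.05, 0.0638), each in edgeR. Maf was called under DESeq2 (1.20, adjusted p 0.00201), without a filter on low counts (1.18, 0.0118), in a fit of the compared populations alone (1.19, 0.0275), and without either male "wannabe" library (1.18, 0.0260 and 1.19, 0.0262) or rescued library 3 (1.37, 0.04998). Myeloid markers summed to 2.05 to 4.34 CPM in rescued and 0.196 to 2.00 CPM in control Treg cells, with 8 of 8 markers higher by mean in rescued Treg cells (Fcer1g, for one, at 0.727 beside 0.037 CPM) and none of the 5 tested called by edgeR or DESeq2 or at an unadjusted p under 0.05. The 5 CD8 T and NK cell markers summed to 21.7 to 27.5 CPM in rescued and 13.5 to 25.8 CPM in control Treg cells, and each had a log2 fold change above 0. None was called by edgeR, 3 had an unadjusted p under 0.05, and DESeq2 called 1 (Klrk1). Among them Klrb1c was 3.07 ± 1.7 (SD, n = 3) in rescued and 0.787 ± 0.48 CPM (SD, n = 3) in control Treg cells. Ncr1 and Klrk1 were at 0 in the 3 control libraries and in rescued library 1 and reached 2.01 and 1.11 CPM in the other rescued libraries. The sort gates leave out CD8+ and NK1.1+ cells. The part of CD8 T and NK cells and of myeloid cells in these changes, and in those of Tbx21 and Gzmb, was not tested.

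Against male "wannabes", the unrescued cells of Foxp3-deficient mice, control Treg cells had less Il10, Batf and Irf4. The control level was 0.222 times that of male "wannabes" for Il10 (log2 fold change -2.17, 95% interval -2.68 to -1.65, adjusted p 0.000447, edgeR), 0.580 times for Batf (-0.79, SE 0.21, adjusted p 0.0281) and 0.632 times for Irf4 (-0.66, SE 0.19, adjusted p 0.0367), where 6.27% of the genes tested were called lower and 9.92% higher. Prdm1 (-0.72, adjusted p 0.148) and Maf (-0.71, adjusted p 0.143) were lower by estimate and were not called. The Il10 call held without each library. Batf rested on male "wannabe" library 2, without which its log2 fold change was -0.36 (adjusted p 0.292), and was also lost without control library 1 (-0.75, 0.0896), control library 2 (-0.71, 0.0939) or rescued library 2 (-0.76, 0.0553). Irf4 was lost without control library 2 (-0.56, 0.128) or 3 (-0.65, 0.102), either male "wannabe" library (-0.56, 0.120 and -0.70, 0.0625) or rescued library 2 (-0.63, 0.0622), all in edgeR.

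Rescued Treg cells and male "wannabes" come from mice with the same Foxp3LSL allele and differ in the Cre and thus in Foxp3. The state of the mice differs as well. For mice with the Cre the paper reports reduced T cell activation within a week of treatment, whereas mice without it remained sick. Foxp3 and the state of the mouse cannot be told apart in this comparison. Here 1 of the 5 genes was called: Irf4 was 0.505 times as high in rescued Treg cells (log2 fold change -0.99, SE 0.19, 95% interval -1.40 to -0.57, adjusted p 0.00565, edgeR), where 4.06% of the genes tested were called lower and 10.0% higher. This call held without each of the 8 libraries. Il10 had a log2 fold change of 0.44 (95% interval -0.09 to 0.96, adjusted p 0.261), Prdm1 of 0.73 (0.01 to 1.45, adjusted p 0.173) and Maf of 0.46 (-0.23 to 1.16, adjusted p 0.369). Batf had one of -0.29 (-0.76 to 0.18, adjusted p 0.407), which turned to 0.15 without male "wannabe" library 2. The intervals leave room for about a doubling of Il10 and do not show that the populations were alike. The 3 male comparisons share their libraries, so their values are not independent of each other.

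Activated "wannabes" were compared with resting ones to ask what the same genes did in cells without Foxp3 once the mice fell ill. Il10 fell to 0.522 times its resting level (log2 fold change -0.94, SE 0.26, 95% interval -1.57 to -0.30, adjusted p 0.0477, edgeR), Maf to 0.463 times (-1.11, SE 0.25, adjusted p 0.0255) and Irf4 to 0.494 times (-1.02, SE 0.19, adjusted p 0.0136), while Batf rose 1.40-fold (0.49, SE 0.12, adjusted p 0.0313). The background in this comparison was high, with 11.2% of the 13166 genes tested called lower and 11.3% higher. Prdm1 was not called (-0.79, 95% interval -1.42 to -0.16, adjusted p 0.0747), but was called under DESeq2 (-0.79, adjusted p 0.0116) and without resting library 3 (-1.004, adjusted p 0.0134, edgeR). The Il10 call was near the threshold and was lost without a filter on low counts (-0.93, adjusted p 0.0633) and without resting library 1 (-1.01, 0.0616) or 2 (-0.72, 0.0747) or activated library 1 (-0.64, 0.231) or 2 (-1.31, 0.0703). Without activated library 1 or 2, which leaves a single activated library that is assumed to vary as the resting ones do, Maf (-1.12, 0.139 and -1.10, 0.149) and Irf4 (-1.03, 0.0942 and -1.004, 0.102) were lost as well. Batf was lost without resting library 1 (0.46, 0.0647) or 3 (0.41, 0.0583) and without activated library 1 (0.52, 0.133) or 2 (0.46, 0.182), the adjusted p-values being those of edgeR. Plasma cell markers, of a cell type that makes Blimp-1, IRF4 and at times IL-10, were lower by mean in the activated libraries. Sdc1 was 6.49, 7.76 and 4.17 CPM in resting and 0.446 and 0.386 CPM in activated "wannabes", and fell (log2 fold change -3.87, adjusted p 0.00167, edgeR). Jchain was 4.54, 1.44 and 19.8 CPM in resting and 0.223 and 0.579 CPM in activated "wannabes" and was not called (-4.41, adjusted p 0.0511). Mzb1, not tested for lack of reads, was 0, 0 and 2.24 CPM in resting and 0.0637 and 0.0643 CPM in activated "wannabes". Among the resting libraries Sdc1 was highest in library 2 and lowest in library 3, as all 5 genes were, Batf included. Jchain and Mzb1 were highest in library 3. How many of all genes have the order of Sdc1 was not counted. The 8 B and plasma cell markers summed to 20.8 to 36.1 CPM in resting and 23.5 to 25.5 CPM in activated "wannabes", and Cd79b was higher in the latter (8.34 ± 0.71 CPM, SD, n = 3, in resting and 21.1 ± 1.1 CPM, SD, n = 2, in activated "wannabes"). Myeloid markers summed to 4.50 to 5.95 CPM in activated and 2.06 to 2.99 CPM in resting "wannabes", with 4 of 8 markers higher by mean in activated (Lyz2, Csf1r, Zbtb46 and Itgax) and 4 lower (Cd14, Adgre1, Flt3 and Fcer1g). The part of these cells in the changes was not tested.

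**Figure D2:**
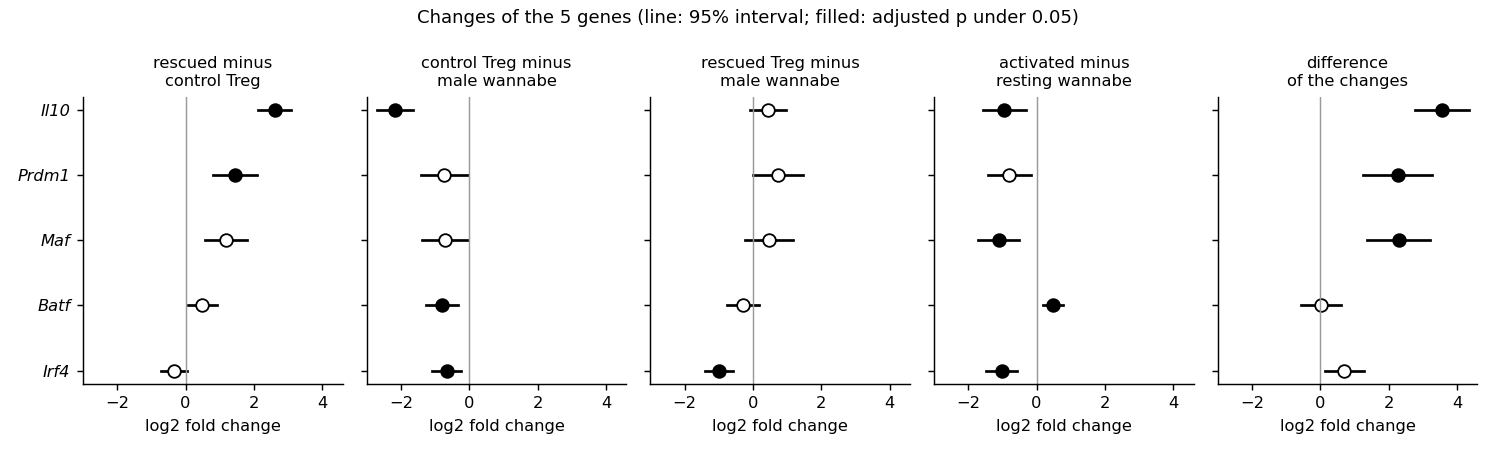
Log2 fold change (points) of each gene in 4 comparisons and in the difference of the changes, with 95% intervals (lines) from edgeR; filled points have an adjusted p under 0.05. Il10 and Prdm1 are right of 0 in rescued against control Treg cells and left of 0 in activated against resting "wannabes", while Batf, at 0.50 and 0.49, is right of 0 in both.

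Whether the change in Treg cells differed from that in "wannabes" was tested within a single fit of the 13 libraries, as the change from control to rescued Treg cells less that from resting to activated "wannabes". Sex, age, treatment and the 2 experiments go along with cell type in this contrast and cannot be told apart from it. The difference was called for Il10 (log2 difference 3.56, SE 0.37, 95% interval 2.77 to 4.35, adjusted p 0.000638, edgeR), Maf (2.30, SE 0.43, adjusted p 0.0163) and Prdm1 (2.27, SE 0.47, adjusted p 0.0299), where 0.803% of 15201 genes were called higher and 0.730% lower. It was not called for Irf4 (0.71, 95% interval 0.15 to 1.27, adjusted p 0.234) or Batf (0.02, -0.56 to 0.60, adjusted p 0.998). The interval of Batf keeps a difference of up to about 0.6 log2 units in either direction possible, and its sign changed when single libraries were left out (-0.10 to 0.15). Il10 was called without each of the 13 libraries. Maf was lost without activated library 1 (2.30, 0.111) or 2 (2.30, 0.123). Prdm1 was lost without control library 2 (2.16, 0.0606) or 3 (2.21, 0.0757), resting library 1 (2.25, 0.0622) or 2 (2.03, 0.0732), or activated library 1 (2.09, 0.198) or 2 (2.47, 0.127), with adjusted p-values from edgeR.

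**Figure D3:**
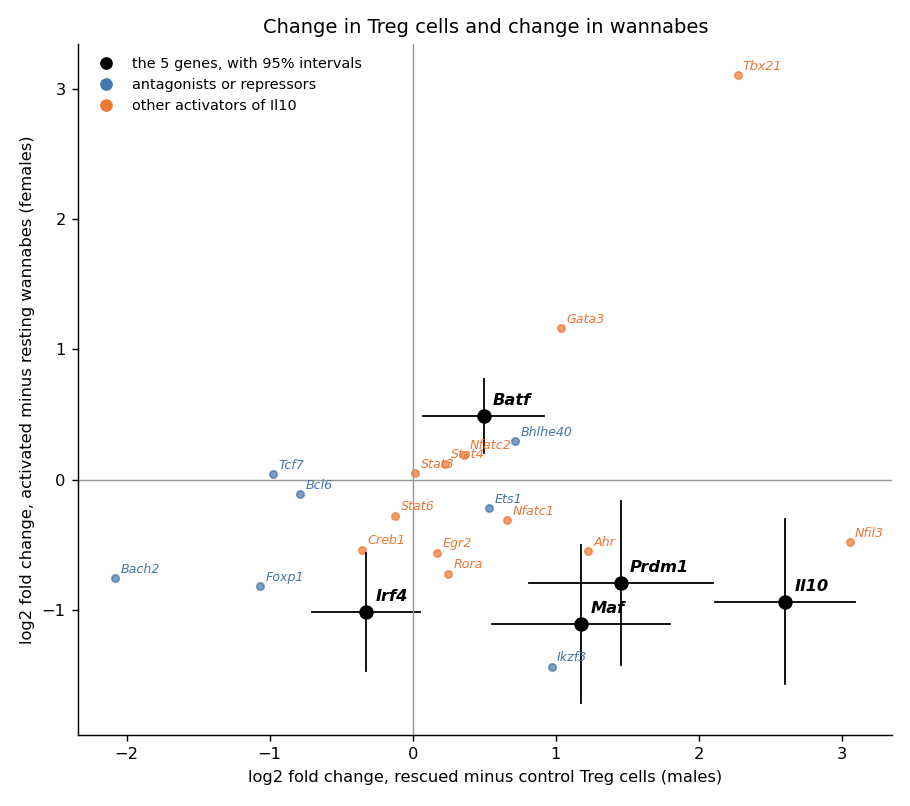
Log2 fold change in rescued against control Treg cells (horizontal) and in activated against resting "wannabes" (vertical) for the 5 genes (black, with 95% intervals) and for 7 genes listed as antagonists or repressors (blue) and 12 other activators of Il10 (orange). Il10, Prdm1 and Maf lie to the lower right, Batf to the upper right and Irf4 to the lower left.

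How closely each factor followed Il10 was described by Pearson's r over the 13 libraries, of log2 CPM (prior count 2) with the mean of the experiment taken off. The points share their groups, so r reflects differences between groups as well as within them, and no test was made. Prdm1 had an r of 0.859 with Il10 and ranked 19 of 10239 genes, Maf 0.740 (rank 111), Batf 0.505 (rank 645) and Irf4 0.197 (rank 2716). The median r of all ranked genes was -0.021 and the 95th percentile 0.541, so Prdm1 and Maf lay above that percentile and Batf and Irf4 below it. In the 8 male libraries r was 0.856 for Prdm1, 0.739 for Maf, 0.736 for Batf and -0.039 for Irf4. Among the 10239 genes these ranked 119, 384, 390 and 5210. In the 5 female libraries it was 0.938, 0.915, -0.551 and 0.918 in the same order, with ranks of 230, 381, 7281 and 355. Over the 5 libraries an r of 0.938 thus ranked 230, whereas over the 13 an r of 0.894 ranked 5. The sizes of r are therefore not comparable between these sets of libraries. By r, Prdm1 and Maf thus followed Il10 in both experiments, Batf in the males, and Irf4 in the females. Within the male groups Maf mostly went against Il10. Control libraries 1, 2 and 3 had falling Il10 (15.0, 13 and 10.1 CPM) and rising Maf (26.6, 30.0 and 40.9 CPM). Male "wannabe" library 2 had more Il10 and less Maf than library 1. Rescued library 3 had the most Il10 and the least Maf of its group, though library 2 had more of both than library 1. The male r of Maf thus rests on differences between groups. Leaving out single libraries gave an r of 0.826 to 0.908 for Prdm1, 0.692 to 0.814 for Maf, 0.377 to 0.615 for Batf and 0.090 to 0.377 for Irf4.

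**Figure D4:**
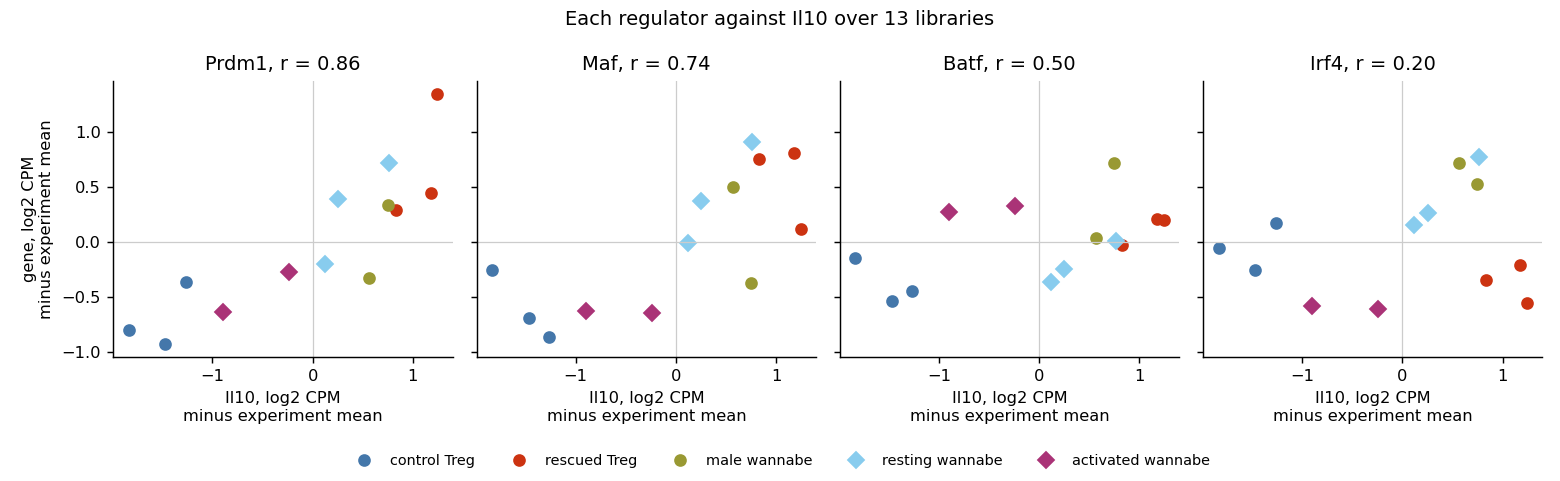
Each regulator (vertical) against Il10 (horizontal) over 13 libraries, both as log2 CPM minus the mean of the experiment; circles are male and diamonds female libraries. Prdm1 rises with Il10 in both experiments (r = 0.859), whereas the rescued Treg cells, high in Il10, are low in Irf4 (r = 0.197 over all libraries).

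The 5 genes most like Il10 on this measure were Ahnak, which encodes a large scaffold protein (r = 0.961), Nmur1, a neuromedin receptor (0.913), Gm2a, the GM2 ganglioside activator of lysosomes (0.907), Plekhb2 (0.905) and Emc3, a subunit of the endoplasmic reticulum membrane protein complex (0.894). Ahnak rose in rescued against control Treg cells (log2 fold change 0.88, adjusted p 0.00582, edgeR) and fell in activated against resting "wannabes" (-0.48, adjusted p 0.0251). Nmur1 rose with the first (2.84, adjusted p 0.00289) and was not called in the second (-0.14, adjusted p 0.819). Emc3 passed the test in neither (0.29 and -0.06), so a high r here can rest on a small range.

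Among 7 factors listed as opposing these regulators or repressing Il10, 3 fell and 1 rose in rescued against control Treg cells (0.864% and 1.43% of all genes), with a median log2 fold change of -0.79 beside -0.03 over all genes. Bach2, which restrains effector differentiation and competes with BATF and Jun for AP-1 elements, was 263, 247 and 310 CPM in control Treg cells, 55.5, 63.4 and 75.4 CPM in rescued Treg cells, and 63.1 and 74.3 CPM in male "wannabes". Control Treg cells were thus far above both other male populations, which overlapped. Bach2 fell by 2.08 on the log2 scale from control to rescued Treg cells (SE 0.17, adjusted p 0.000393, edgeR) and differed little between rescued Treg cells and male "wannabes" (-0.09, 95% interval -0.50 to 0.33, adjusted p 0.815). Foxp1 (-1.07, adjusted p 0.00397) and Tcf7 (-0.98, adjusted p 0.00938), factors of resting T cells, fell as well. The one that rose, Ikzf3 (Aiolos, an Ikaros family factor), had a log2 fold change of 0.97 (adjusted p 0.0229), a call that was lost without each control library and without rescued library 1 or 3 (0.84 to 1.06). Its change had the sign of that of Il10 here and in activated against resting "wannabes" (-1.44). Whether it represses Il10 in these cells was not tested. Bcl6, the follicular helper factor that is mutually repressive with Blimp-1, was not called (-0.79, adjusted p 0.146), nor was Bhlhe40, a repressor of Il10 in T helper cells (0.72, adjusted p 0.0839), nor Ets1 (0.53, adjusted p 0.0642, edgeR). Bhlhe40 passed under DESeq2 (0.73) and without a filter on low counts (0.72), and Ets1 under DESeq2 (0.55), in a fit of the compared populations alone (0.55) and without male "wannabe" library 1 (0.53) or 2 (0.55).

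Bhlhe40 set the "wannabes" apart from both Treg populations. It was 52.2 ± 7.2 CPM (SD, n = 3) in control and 85.8 ± 17 CPM (SD, n = 3) in rescued Treg cells and 292 ± 47 CPM (SD, n = 2) in male "wannabes". Male "wannabes" exceeded control Treg cells (log2 fold change of control -2.48, adjusted p 0.00016, edgeR) and rescued Treg cells (log2 fold change of rescued -1.76, adjusted p 0.0004). In the latter comparison Bcl6 (-1.57, adjusted p 0.00352), Foxp1 (-0.61, adjusted p 0.0207) and Tcf7 (-2.05, adjusted p 0.000202) were lower in rescued Treg cells as well (Foxp1 was lost without male "wannabe" library 2, at -0.44, or rescued library 1 or 2, at -0.56 and -0.50, and in a fit of the compared populations alone, at -0.64), and Ets1 (1.39) and Ikzf3 (1.13) higher, so that of 7, 4 were lower and 2 higher (4.06% and 10.0% of all genes). Between control Treg cells and male "wannabes", 2 were higher (Bach2, 1.99, and Ets1, 0.86) and 2 lower in control cells (Bhlhe40 and Tcf7, -1.07), beside 9.92% and 6.27% of all genes. In activated against resting "wannabes" 3 fell, namely Bach2 (-0.76, adjusted p 0.0149), Foxp1 (-0.82, adjusted p 0.0032) and Ikzf3 (-1.44, adjusted p 0.00193, edgeR), and none rose, beside 11.2% of all genes called lower and 11.3% higher. Bach2 was lost there without activated library 1 (-0.78, 0.108) or 2 (-0.74, 0.111).

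Of 12 other activators of Il10 in CD4 T cells, 5 rose and none fell in rescued against control Treg cells (1.43% and 0.864% of all genes), with a median log2 fold change of 0.30 beside -0.03 over all genes. Nfil3, a bZIP factor, was 5.95, 6.17 and 9.98 CPM in control Treg cells and 114, 25 and 44.8 CPM in rescued Treg cells, a rise of 3.05 on the log2 scale (SE 0.49, adjusted p 0.011, edgeR) that was lost without control library 1 (2.92, adjusted p 0.0646) and was 2.24 without rescued library 1. Tbx21, which encodes the type 1 factor T-bet, rose by 2.27 (adjusted p 0.0192), Ahr, the aryl hydrocarbon receptor, by 1.22 (adjusted p 0.0391), Gata3, the type 2 factor, by 1.03 (adjusted p 0.00938) and Nfatc1, a calcineurin-dependent factor, by 0.66 (adjusted p 0.0361). Gata3 was called without each library, whereas Tbx21 was lost without control library 1 or 3 or rescued library 2 or 3 (2.09 to 2.25), and Ahr (0.91 to 1.40) and Nfatc1 (0.60 to 0.76) without each single control or rescued library. Stat3, which transmits IL-10 and IL-6 receptor signals, was not called (0.02, 95% interval -0.41 to 0.45, adjusted p 0.981).

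In activated against resting "wannabes", where 11.3% of all genes were called higher and 11.2% lower, 2 of these 12 rose and 3 fell. Tbx21 rose from 7.58 ± 1.8 (SD, n = 3) to 65.2 ± 9.0 CPM (SD, n = 2), a log2 fold change of 3.10 (adjusted p 0.000465, edgeR), and Gata3 from 214 ± 6.1 (SD, n = 3) to 478 ± 6.7 CPM (SD, n = 2), a log2 fold change of 1.16 (adjusted p 0.000334). The 3 that fell included Egr2 (-0.56, adjusted p 0.0184) and Creb1 (-0.54, adjusted p 0.00744), which were not called without activated library 1 (-0.69, 0.0565 and -0.57, 0.0665) or 2 (-0.45, 0.143 and -0.51, 0.0848). Gata3 had a high likeness to Il10 in the males (r = 0.935) and a negative one in the females (-0.820), as Batf did (0.736 and -0.551). Nfatc1 had a positive r in both, 0.843 in the males (rank 140 of 10239) and 0.894 in the females (rank 594).

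**Figure D5:**
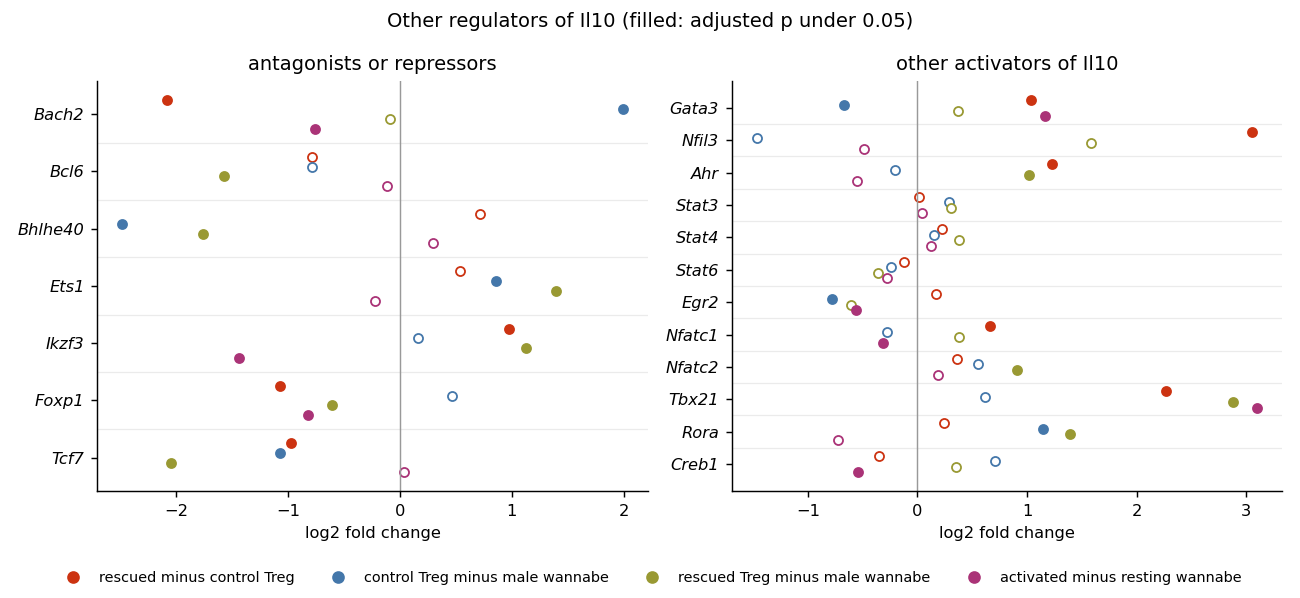
Log2 fold change of 7 genes listed as antagonists or repressors (left) and 12 other activators of Il10 (right) in the 4 comparisons, by colour, where filled points have an adjusted p under 0.05 (edgeR). Bach2 is far below 0 in rescued against control Treg cells (-2.08) and near 0 against male "wannabes" (-0.09), and Tbx21 is above 0 in rescued against control Treg cells (2.27) and in activated against resting "wannabes" (3.10).

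Of 12 other AP-1 and IRF family genes, some of which encode partners of BATF, 10 were tested in each experiment. None was called in rescued against control Treg cells by edgeR, where 1.43% of all genes were called higher and 0.864% lower (median log2 fold change 0.23 beside -0.03 over all genes). At an unadjusted p under 0.05 there were 2, and DESeq2 called 1 (Irf8). Not called, for example, was Junb, a BATF partner (0.17, 95% interval -0.36 to 0.69, adjusted p 0.823). In activated against resting "wannabes" Jun (-1.51, adjusted p 0.00308), Fos (-1.09, adjusted p 0.0215) and Junb (-0.75, adjusted p 0.00652) fell and none rose, beside 11.2% of all genes called lower and 11.3% higher (median -0.80 beside -0.01 over all genes), while Batf itself rose. Jund, another Jun gene, was 175 to 706 CPM (n = 3) in resting and 939 and 1215 CPM (n = 2) in activated "wannabes", without overlap, and was not called (1.57, adjusted p 0.0982, edgeR). In the difference of the changes none of 11 was called by edgeR, where 0.803% of all genes were called higher and 0.730% lower, with a median of 0.92 beside -0.03. At an unadjusted p under 0.05 there were 3, and DESeq2 called 0. Irf8, Jun and Jund were higher in rescued Treg cells than in male "wannabes" (1.43, 2.59 and 3.64), 3 of 10 beside 10.0% of all genes, and Jun was higher in control Treg cells (2.30), 1 of 10 beside 9.92%. These Jun and Jund calls were fragile: male "wannabe" library 1 carried that of Jun against rescued Treg cells (1.96, adjusted p 0.0843 without it), either male "wannabe" library that of Jund (3.33, 0.0767 and 4.08, 0.0552), and control library 1 or 2 or male "wannabe" library 1 that of Jun against control Treg cells (1.88, 0.0879, 2.30, 0.0559 and 1.67, 0.12, edgeR). Without rescued library 1 the log2 fold change of Jund was 2.03, and without male "wannabe" library 2 that of Jun was 3.78 in rescued and 3.48 in control Treg cells, all of them called. Batf3 and Batf2, the close relatives of Batf, were left out of the 4 comparisons by the filter on low counts, with at most 39 and 75 reads in a library. Batf3 had no reads in the 3 control libraries.

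On the receiving side, Il10ra, the ligand-binding receptor chain, was 164 ± 5.8 CPM (SD, n = 3) in control and 255 ± 31 CPM (SD, n = 3) in rescued Treg cells, a log2 fold change of 0.63 (adjusted p 0.0441, edgeR) that was lost without each single control or rescued library (0.53 to 0.69). It was the 1 of 8 receptor and signalling genes called there, where 1.43% of all genes were called higher and 0.864% lower. Il10rb, the shared chain, was higher in both Treg populations than in male "wannabes" (1.32, adjusted p 0.00129, and 0.86, adjusted p 0.00852), as was the kinase gene Jak1 (1.24 and 1.38). Socs3, a STAT3 target that dampens cytokine signalling, was higher in rescued Treg cells than in male "wannabes" (1.56, adjusted p 0.014), a call that was lost without male "wannabe" library 1 (1.06, adjusted p 0.0527) and was 2.39 without library 2, and rose in activated "wannabes" (0.39, adjusted p 0.0134), which was lost without activated library 1 (0.36, 0.124) or 2 (0.43, 0.0856).

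The other IL-10 family genes had few reads. Il19, Il20 and Il24, which lie next to Il10, had at most 2, 31 and 1 reads in a library, and Il22, which lies elsewhere, at most 49. Il22 fell from 1.39 ± 0.26 (SD, n = 3) to 0.351 ± 0.22 CPM (SD, n = 2) in activated "wannabes" (-1.98, adjusted p 0.0461, edgeR), a call lost without each of the 5 libraries (-2.83 to -1.45) and without a filter on low counts (-1.97, 0.0628). Mapkapk2, the kinase gene beside Il10, did not follow it: it was 29.9, 28.9 and 29.9 CPM in control Treg cells and 85.7, 28.8 and 25.1 CPM in rescued Treg cells, where only library 1 stood apart (log2 fold change 0.65, adjusted p 0.474, and -0.13 without that library). It rose in activated "wannabes" (1.67, adjusted p 0.0416, edgeR), in which Il10 fell, but not without resting library 2 (1.47) or 3 (1.38) or activated library 1 (1.79) or 2 (1.53), or without a filter on low counts (1.67, 0.0534), and it was 2.33 without resting library 1. Of the other suppressive cytokines, Ebi3, a subunit of IL-35 and IL-27, rose in activated "wannabes" (3.97, adjusted p 0.000427) and Tgfb1 was not called in these 4 comparisons, while Il12a was not tested for lack of reads.

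Genes of effector Treg cells were counted beside Il10. Of 12, 8 rose in rescued against control Treg cells and none fell, where 1.43% of all genes were called higher and 0.864% lower (median log2 fold change 1.12 beside -0.03 over all genes), led by Gzmb, a granzyme (2.48, adjusted p 0.000612), Itgae, the integrin CD103 (1.96, adjusted p 0.00199) and Cxcr3, a type 1 chemokine receptor (1.71, adjusted p 0.0359, edgeR). In activated "wannabes", where the background was 11.3% higher and 11.2% lower, 8 of the 12 rose and none fell (median 1.41 beside -0.01), led by Il1rl1, the IL-33 receptor (4.29, adjusted p 0.00571), Klrg1 (3.53, adjusted p 0.0305) and Cxcr3 (3.41, adjusted p 0.000735). Il10, Maf and Irf4 fell in the libraries in which these genes rose. The Cxcr3 call in Treg cells was lost without each control library or rescued library 2 or 3 (1.47 to 1.85), and that of Klrg1 in "wannabes" without resting library 1 (3.64) or activated library 1 (3.81) or 2 (3.19), while without resting library 2 it was 4.33.

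Of 9 genes that Blimp-1 represses in lymphocytes, 3 fell in rescued against control Treg cells and none rose, beside 0.864% and 1.43% of all genes (median -0.79), namely Id3, an inhibitor of E proteins (-1.50, adjusted p 0.0102), Tcf7 (-0.98) and the lymph node homing receptor Ccr7 (-0.96, adjusted p 0.0122). Id3 was lost without control library 1 (-1.39, 0.0517), and Ccr7 without control library 1 (-0.97, 0.0531) or 3 (-0.97, 0.0518) or rescued library 1 (-0.98, 0.0508, edgeR). Against male "wannabes", from which Prdm1 was not called different, 4 were lower in rescued Treg cells, beside 4.06% of all genes (Tcf7, Ccr7, -1.61, Bcl6 and Myc, -0.78, the last of which was lost without control library 3, male "wannabe" library 2 or rescued library 1 or 3, at -0.78 to -0.53, and in a fit of the compared populations alone, at -0.81). In control Treg cells against male "wannabes", where 9.92% of all genes were called higher and 6.27% lower, 3 were higher and 2 lower. Of the 3, Cxcr5, a follicle homing receptor (0.86), was lost without control library 1 (0.98, adjusted p 0.0516), 2 (0.82, 0.106) or 3 (0.78, 0.118), male "wannabe" library 1 (0.60, 0.173) or rescued library 2 (0.89, 0.0569, edgeR). In activated against resting "wannabes" none of the 9 was called by edgeR, where 11.3% of all genes were called higher and 11.2% lower. At an unadjusted p under 0.05 there were 3, and DESeq2 called 2.

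Effector T cell cytokines were counted as the inflammatory side of the same cells. Of 8, Il4 and Il21 rose in rescued against control Treg cells, beside 1.43% of all genes. Of the same 8, 3 (Il13, Il4 and Il21) were lower in each Treg population than in male "wannabes", beside 6.27% of all genes for control and 4.06% for rescued Treg cells. Control Treg cells held almost no reads of them, so the values are given as reads. Il4 had 3, 0 and 11 reads in control Treg cells, 698, 237 and 326 in rescued Treg cells, and 2776 and 2857 in male "wannabes". Il21 had 5, 1 and 0 reads in control Treg cells, 59, 23 and 133 in rescued Treg cells, and 534 and 348 in male "wannabes". Neither gene overlapped between any of these groups. Il13 had no read in the control libraries, 0, 0 and 1 in the rescued libraries, and 131 and 67 in male "wannabes". The rise of Il21 in Treg cells was lost without control library 2 (log2 fold change 4.68, adjusted p 0.0894) or 3 (4.46, 0.0611) or rescued library 3 (4.34, 0.0521, edgeR) and in a fit of the compared populations alone (5.03, 0.0753), and was 6.89 without control library 1. Its lower level in rescued Treg cells than in male "wannabes" (-2.66, adjusted p 0.0496, edgeR) was lost without control library 2, either male "wannabe" library or rescued library 1 or 2 (-2.79 to -2.25), and was -3.35 without rescued library 3. The Il13 call in that comparison was lost without male "wannabe" library 1 (adjusted p 0.0781) or rescued library 1 (0.0562) or 2 (0.0657, edgeR).

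In activated "wannabes" Il4 rose (1.40, adjusted p 0.026, edgeR) and Il17a (-5.96) and Il21 (-2.73) fell, out of 6 tested, where 11.3% of all genes were called higher and 11.2% lower. Il21 thus went up with Il10 in the Treg cells and down with it in the "wannabes", whereas Il4 rose in both. The rise of Il4 in "wannabes" was lost without resting library 1 (1.31, 0.0571) or activated library 1 (1.47, 0.114) or 2 (1.32, 0.144, edgeR).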

How the data were processed

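Treg cells and Treg "wannabes" were profiled by bulk RNA-seq in 13 libraries from 2 ng of RNA (SMART-Seq v4, KAPA Hyper Prep). The authors aligned reads with STAR 2.7.3a to GRCm38, applied local realignment (GATK) and summed reads over genes; the deposited values are these raw counts, not normalized. The annotation and strand setting are not given in the sources used here. Each table held 24421 rows, of which 4 without a gene name were left out. Groups follow titles and genotypes, by which there are 3 resting and 2 activated libraries, whereas the design text of the series gives these numbers the other way round. Columns of the male table named GFP and Thy1 were assigned to rescued Treg cells and "wannabes" by inference from the sort gates, and the number of columns and of libraries is the same for each.

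Counts were tested in R 4.3.3 with edgeR 4.0.16 (TMM, filterByExpr on the groups, quasi-likelihood F test, Benjamini-Hochberg over all genes tested, adjusted p under 0.05). One fit held the 8 male libraries, another the 5 female libraries, and a fit of all 13 gave the difference of the changes. SEs derive from the F statistic. The method was tested on simulated data. Replicates differed by more than counting error (chi-square per degree of freedom 13.2 to 144). Likeness ranks cover genes tested in both experiments with a mean normalized count over 100 in each.

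Named genes are the 5 genes, the 5 most like Il10, 14 fixed list genes, and for each list and comparison up to 3 further genes past the threshold with the largest change, with Foxp3 and Thy1 as checks of the labels. The genes, lists and this rule were chosen with earlier results of these data known. Alternatives were DESeq2 1.42.0, its size factors in edgeR, no filter, the populations compared alone, the replicate block and each library left out. Results of a few listed genes are not reported here.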

Additional observations from a re-analysis of the deposited data

Results flagged for a closer look

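For 12 of the 75 genes tested among the 5 genes and the lists, which were chosen with earlier results known, 8 higher and 4 lower, beside 0.803% and 0.730% of all genes, the change from control to rescued Treg cells differed from the change from resting to activated "wannabes" in the edgeR contrast over 13 libraries, a test of the difference itself. Il10 had a log2 difference of 3.56 (adjusted p 0.000638), from 2.60 in Treg cells and -0.94 in "wannabes". Nfil3 had one of 3.55 (adjusted p 0.0227), from 3.05 and -0.48, and was lost without control library 1 (3.41, 0.0549), resting library 1 (3.32, 0.0562) or 2 (3.46, 0.0519), or activated library 1 (3.37, 0.175) or 2 (3.75, 0.134). It was 2.74 without rescued library 1. Maf had one of 2.30 (adjusted p 0.0163) and Prdm1 one of 2.27 (adjusted p 0.0299). Bach2 had one of -1.31 (adjusted p 0.0152): it fell in both settings and by more in Treg cells, and was lost without activated library 1 (-1.30, 0.0974) or 2 (-1.32, 0.0969). Ikzf3 had one of 2.42 (adjusted p 0.00111), from 0.97 and -1.44, and held without each library. Il21 had one of 7.82 (adjusted p 0.00111) and Il4 one of 5.12 (adjusted p 0.0101), sizes that depend on the few reads in control Treg cells (Il21 was 9.63 without control library 1 and 7.12 without rescued library 3, and Il4 was 4.51 and 6.64 without control library 2 and 3), and Il4 was lost without activated library 1 (5.04, 0.0821) or 2 (5.20, 0.0759). Nfatc1 had one of 0.99 (adjusted p 0.0144) and Tcf7 one of -1.01 (adjusted p 0.0145), both lost without activated library 1 (0.98, 0.108 and -1.07, 0.0779) or 2 (1.00, 0.109 and -0.94, 0.122). Ebi3 had one of -3.18 (adjusted p 0.0107), lost without activated library 1 (-3.15, 0.0597) or 2 (-3.21, 0.0544), and Il1rl1 one of -3.03 (adjusted p 0.0268), lost without control library 1 or 3, rescued library 2 or 3 or either activated library (-3.12 to -2.98), and -3.63 without resting library 2. Sex, age, treatment and experiment cannot be told apart from cell type in this contrast.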

How the results depend on the processing

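The calls of Il10 in rescued against control Treg cells, in control Treg cells against male "wannabes" and in the difference of the changes, and that of Irf4 in rescued Treg cells against male "wannabes", kept their direction and side of the threshold under all alternatives run. Under DESeq2, more genes were called in rescued against control Treg cells (693 higher and 403 lower, beside 214 and 129), lower in control (1539, beside 936) and in rescued Treg cells (1152, beside 606) against male "wannabes", and in the difference (413 and 357, beside 122 and 111). Maf in rescued against control Treg cells (1.20) and Prdm1 in activated "wannabes" (-0.79) then passed. Without a filter on low counts, 401 genes were higher and 211 lower in rescued against control Treg cells, Maf passed (1.18), Il10 in activated "wannabes" did not (-0.93), and the Stat3 difference turned to 0.0038. In fits of the populations compared alone, 352 genes were higher and 228 lower in rescued against control Treg cells, Maf passed (1.19), and 334 genes were lower in rescued Treg cells against male "wannabes". DESeq2 size factors in edgeR changed no call of the 5 genes.

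Replicate numbers do not pair the libraries (correlations of deviations between same-numbered libraries -0.029 to 0.084). With the replicate block, Irf4 in control Treg cells against male "wannabes" (-0.61, adjusted p 0.0669, edgeR) and Batf in activated "wannabes" (0.41, 0.053) were not called, Prdm1 there was (-1.01, 0.00228), 954 genes were lower in activated "wannabes" (beside 1469), and Bcl6 turned to 0.11. Among list genes named with a call, Il10ra in rescued against control Treg cells (0.63, 0.0513), Cxcr5 in control Treg cells (0.80, 0.0611) and Il13 and Il21 in rescued Treg cells (0.0669 and 0.0768) against male "wannabes", and Il22 in activated "wannabes" (-2.06, 0.105) were not called either, and Bhlhe40 in rescued against control Treg cells was (0.71, 0.0402).

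With single libraries left out, genes called ranged over 67 to 340 higher and 41 to 230 lower in rescued against control Treg cells, 505 to 933 lower in control Treg cells against male "wannabes", 223 to 672 lower in rescued Treg cells against male "wannabes", 486 to 1646 higher and 292 to 1552 lower in activated "wannabes", and 18 to 240 higher and 17 to 193 lower in the difference. Log2 fold changes in rescued against control Treg cells ranged over 1.05 to 1.65 for Prdm1, 1.05 to 1.38 for Maf, -0.0583 to 0.12 for Stat3, -0.0083 to 0.38 for Junb and -0.13 to 0.95 for Mapkapk2. In control Treg cells against male "wannabes" they ranged over -1.09 to -0.36 for Batf, -0.78 to -0.56 for Irf4 and -0.0555 to 0.80 for Stat3. In rescued Treg cells against male "wannabes" they ranged over -0.59 to 0.15 for Batf, -0.21 to 0.10 for Bach2 and -0.0372 to 0.83 for Stat3. In activated "wannabes" they ranged over -1.31 to -0.64 for Il10, -1.004 to -0.57 for Prdm1, -1.30 to -0.83 for Maf, 0.41 to 0.60 for Batf, -1.14 to -0.80 for Irf4 and -0.29 to 0.10 for Bcl6. Differences of the changes ranged over 1.85 to 2.48 for Prdm1, 2.02 to 2.503 for Maf, -0.10 to 0.15 for Batf and -0.0882 to 0.08 for Stat3.

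Likeness to Il10 by Spearman's rho was 0.896 for Prdm1, 0.44 for Batf and 0.099 for Irf4. Females alone gave 0.938 for Prdm1, 0.915 for Maf, -0.551 for Batf and 0.918 for Irf4, and males alone 0.736 for Batf and -0.039 for Irf4. Leaving out single libraries gave 0.826 to 0.908, 0.692 to 0.814, 0.377 to 0.615 and 0.0898 to 0.377 for Prdm1, Maf, Batf and Irf4. The cause of these changes was not tested. With 2 libraries in a group, single libraries decide many calls.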
